A study of Rattus norvegicus with 6 samples.

Results

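Mammospheres grown from hCG-treated and control rats were compared in the genes of the mitochondrial respiratory chain, complexes I to V. The members were the probe sets that the platform annotation assigned to 1 gene with a symbol beginning with Nduf, Sdha, Sdhb, Sdhc, Sdhd, Uqcr, Cox4, Cox5, Cox6, Cox7, Cox8 or Atp5, or with the symbol Cyc1, and the brightest probe set of a gene stood for it. The rule gave 91 genes, on 102 probe sets, of 14217 genes with a probe set of their own. A further 7 probe sets of the chain named several genes and were left out. Of the 91 genes, 78 encode subunits: 34 of complex I, 4 of complex II, 8 of complex III, 17 of complex IV and 15 of complex V. The other 13 are 6 assembly factors of complex I, 4 of complex II, the ATP synthase inhibitor Atp5if1, the supercomplex factor Cox7a2l and the pseudogene Cox6c-ps1. Ndufa4 and Ndufa4l2, named after complex I, were placed in complex IV, where the Ndufa4 protein is now known to sit.

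Donor rats were female Sprague Dawley animals whose treatment started at 55 days of age. The hCG group received 100 IU per day of recombinant human chorionic gonadotropin, the placental hormone that stimulates the ovary through the luteinizing hormone receptor, by injection into the abdominal cavity for 21 days, and the Control group received phosphate buffered saline in the same way. Mammary glands 4 and 5 were removed 21 days after the last injection, and cells enriched for epithelium were kept for 7 days in low-attachment plates with epidermal growth factor, basic fibroblast growth factor and heparin, where they form floating spheres called mammospheres. RNA of 3 Control and 3 hCG cultures, numbered 5, 6 and 7 in each group, was amplified over 2 cycles and hybridised to Affymetrix 3′ arrays. The submitters state 3 animals per group, but no label ties an array to its own animal. The p-values therefore reflect only how far these samples vary, and some of that variation may be technical.

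The respiratory chain passes electrons from NADH (complex I) and succinate (complex II) through coenzyme Q to complex III, from there through cytochrome c to complex IV, and finally to oxygen. Complexes I, III and IV pump protons across the inner mitochondrial membrane, and complex V, the ATP synthase, lets them flow back to make ATP. Most subunits are encoded in the nucleus and are measured here, and a small set is encoded in mitochondrial DNA and lies outside the rule. In the mammary gland, mitochondria supply the ATP and the citrate used for milk synthesis, and the nuclear genes of the chain are known targets of the transcription factors NRF1, GABP (an ETS factor), YY1 and the estrogen-related receptors.

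Because these shared regulators are known, promoters of the members were searched for their motifs, on both strands, in RefSeq sequence of the rat assembly GRCr8 from 250 bases before to 50 bases after each annotated start. A promoter was available for 82 of the 91 members and for 8705 of the tested genes. The NRF1 core GCATGCGC was found in 9 member promoters (11%), against 5.16% of the promoters of all tested genes and 3.23% of 19005 protein-coding promoters. The ETS motif CCGGAAG was present in 25 (30.5%, against 18.5% of tested genes and 11.2% of coding promoters), and the YY1 motif AAGATGGCG in 11 (13.4%, against 3.97% and 2.29%). The estrogen-related receptor motif TCAAGGTCA was present in 2 members, Atp5mc3 and Sdhd (2.44%, against 0.207% and 0.353%). The SP1 motif GGGCGG was present in 38 (46.3%), below the 63.7% of tested genes and above the 43.1% of coding promoters. Median GC content was 56.0% in member promoters and 61.3% in those of tested genes. Each motif was counted on its own, also where matches overlapped.

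The 9 stretches with the NRF1 core are shown because they place the motif in genes of 4 of the 5 complexes and in 2 assembly factors. Each is 60 bases long and is written 5′ to 3′ on the strand of its gene, with the matches in capitals. Where the core and its reverse complement overlap, they form the palindrome GCGCATGCGC, which counts as a match on each strand.

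Ndufaf4, chr5:43401612-43401671, plus strand: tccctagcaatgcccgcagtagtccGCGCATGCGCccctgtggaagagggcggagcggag
Ndufaf5, chr3:147961552-147961611, plus strand: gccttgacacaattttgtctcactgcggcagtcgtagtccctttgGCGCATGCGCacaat
Ndufa6, chr7:115750388-115750447, minus strand: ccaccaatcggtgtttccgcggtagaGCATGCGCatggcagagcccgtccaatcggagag
Ndufa11, chr9:1637495-1637554, plus strand: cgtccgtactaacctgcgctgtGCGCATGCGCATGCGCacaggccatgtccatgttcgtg
Sdhb, chr5:158547741-158547800, plus strand: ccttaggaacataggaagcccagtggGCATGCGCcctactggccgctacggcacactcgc
Uqcrc1, chr8:118468158-118468217, plus strand: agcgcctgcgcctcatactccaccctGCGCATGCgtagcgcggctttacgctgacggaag
Atp5po, chr11:44657508-44657567, minus strand: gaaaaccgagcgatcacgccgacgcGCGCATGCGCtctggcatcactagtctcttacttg
Atp5me, chr14:1464759-1464818, plus strand: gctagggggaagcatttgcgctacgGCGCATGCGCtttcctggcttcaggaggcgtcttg
Atp5mg, chr8:54130598-54130657, minus strand: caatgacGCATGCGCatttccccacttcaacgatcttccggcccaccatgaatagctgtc

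The capitals began 158 bases before the annotated start in Ndufaf4, 15 in Ndufaf5, 104 in Ndufa6, 97 in Ndufa11, 167 in Sdhb, 39 in Uqcrc1, 59 in Atp5po, 76 in Atp5me and 243 in Atp5mg. Ndufa11 held 4 overlapping matches, the most of the 9. The match is a description of these letters and does not show that the factor binds there. The 9 genes with the NRF1 core had a median log2 change of 0.18 in hCG mammospheres, and the 70 tested members without it 0.07. With and without the ETS motif the medians were 0.07 (25 genes) and 0.08 (54 genes), with and without the YY1 motif 0.11 (11 genes) and 0.08 (68 genes), and with and without the SP1 motif 0.05 (36 genes) and 0.11 (43 genes). These medians are given without a test.

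In the comparison of hCG with Control, 0 of the 87 tested members were called higher and 0 called lower by limma's moderated test at an adjusted p under 0.05, with Benjamini-Hochberg adjustment over 10424 genes. Among all genes tested, 1.01% were called higher and 0.815% lower, 190 genes or 1.82% in all. At an unadjusted p under 0.05, 6 members were higher and 0 lower, against 14.4% and 9.64% of all genes. Changes of the members ran from -0.23 to 0.33 on the log2 scale, with a median of 0.08 against 0.03 over all genes. The sign of the change was positive in 62 members and negative in 25, where 55.8% of all genes had a positive change. All 3 hCG arrays lay above all 3 Control arrays in 24 members and below them in 2, against 19.3% and 12.3% of all genes. The lowest adjusted p was 0.0806, for Ndufaf4.

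Standard errors of the members' log2 changes ran from 0.07 to 0.21, and the 95% interval of the log2 change lay within -0.5 and 0.5 in 80 of 87 members, as it did in 65.7% of all genes, and within -1 and 1 in all 87. The 7 members with a wider interval were Atp5f1e, Cox5a, Cox6a2, Cox6c-ps1, Ndufa4l2, Ndufaf4 and Ndufb8. Signal was bright for most members, with a mean log2 value above 8 in 63 of the 91. The other 4 members, Cox4i2, Cox6b2, Cox7b2 and Cox8b, had means below the filter of 2.67 and were not tested. RNA of a whole culture cannot tell fewer cells of a type from less RNA per cell.

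**Figure D1:**
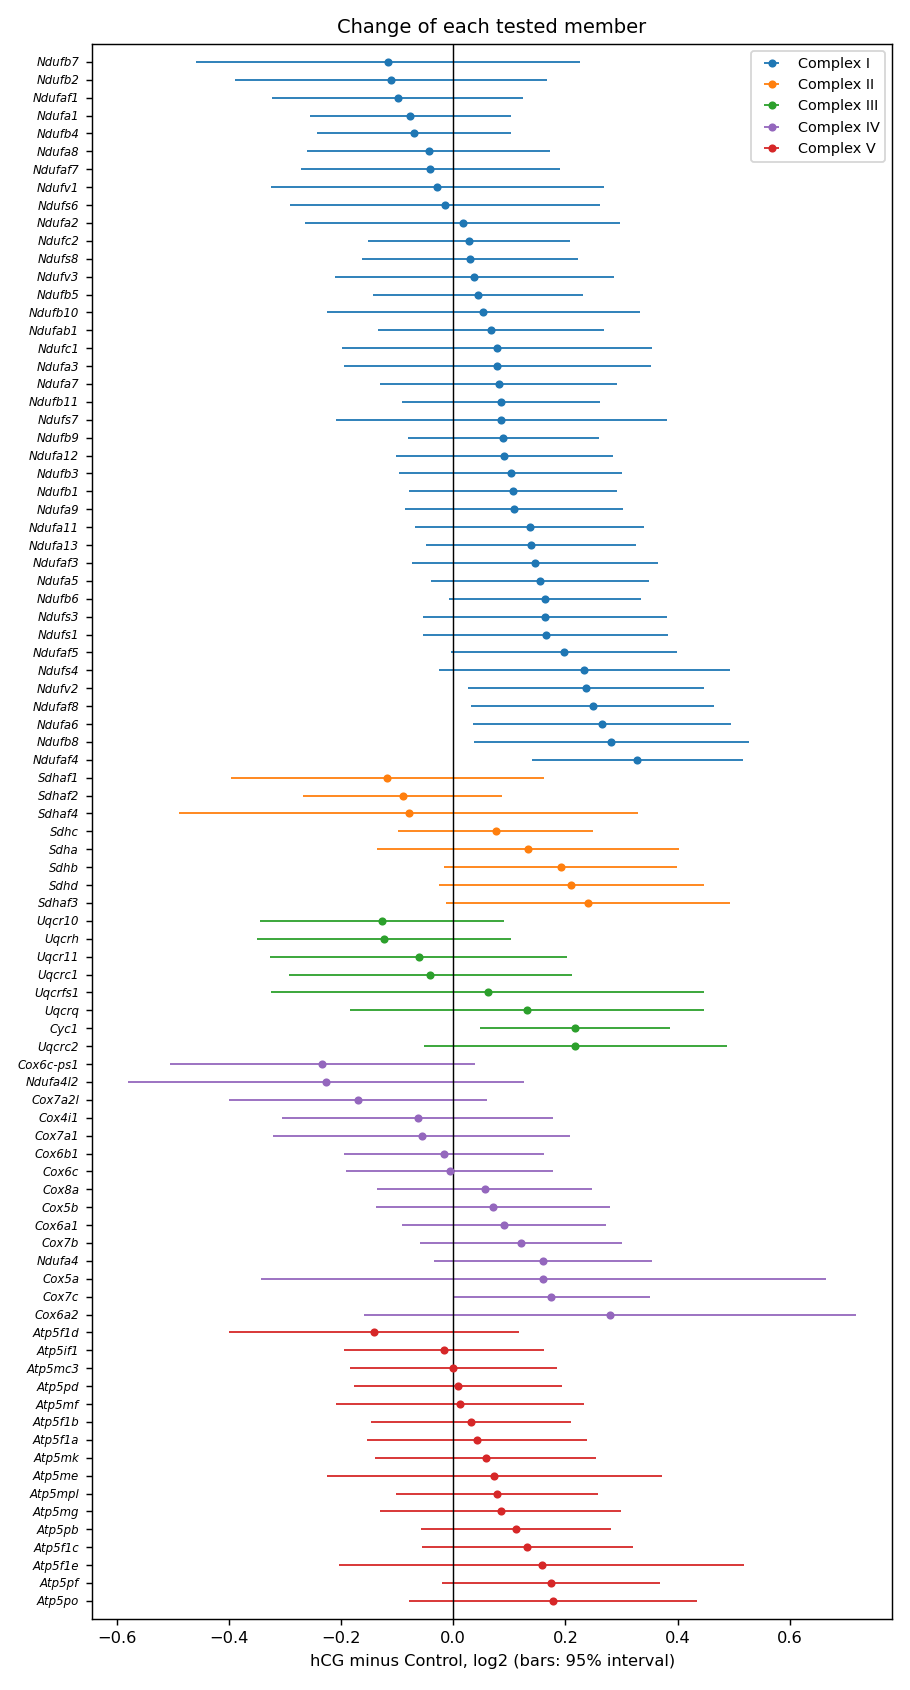
The log2 change of each of the 87 tested members is plotted as hCG minus Control, with its 95% interval, ordered by complex and then by size; assembly factors and other non-subunits are shown with their complex. Points lie between -0.23 and 0.33, and 62 of them lie above 0.

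Complex I takes electrons from NADH and is the largest of the complexes. Its 34 subunits had a median log2 change of 0.08, with 27 above 0 and 7 below. All hCG arrays exceeded all Control arrays in 8 of them, Ndufa5, Ndufa6, Ndufa13, Ndufb6, Ndufb8, Ndufb9, Ndufb11 and Ndufv2, and Ndufb4 was the 1 subunit with all hCG arrays lower, where 19.3% and 12.3% of all genes were so placed. The 6 core subunits, which include those that hold the flavin and iron-sulfur clusters, had a median of 0.12 and the 28 accessory subunits one of 0.08.

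Ndufv2, a core subunit of the NADH-binding end, read 8.27, 8.27 and 8.30 on Control arrays 5, 6 and 7, and 8.63, 8.54 and 8.39 on the hCG arrays. The Control values lay close together and the hCG values spread more widely above them. The log2 change was 0.24 (SE 0.09, n = 3 per group, limma adjusted p = 0.171). Ndufa6, an accessory subunit that anchors an acyl carrier protein, read 8.14, 8.15 and 8.39 in Control and 8.55, 8.44 and 8.49 in hCG. Control 7 stood apart from the other Control arrays and just below the hCG arrays, and the change was 0.27 (SE 0.10, limma adjusted p = 0.163). Ndufb8, an accessory subunit of the membrane arm, read 6.19, 6.31 and 6.34 in Control and 6.74, 6.47 and 6.47 in hCG. Its highest array was hCG 5, and its change of 0.28 was the largest of any subunit (SE 0.10, limma adjusted p = 0.164).

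Ndufs4, an accessory subunit of the matrix arm, changed by 0.23 (SE 0.11, limma adjusted p = 0.248). Its arrays overlapped, since Control 7 at 8.08 lay above hCG 5 at 8.03. Ndufb4, an accessory subunit of the membrane arm, read 9.82, 9.87 and 9.79 in Control and 9.74, 9.76 and 9.77 in hCG, so the groups did not overlap, and the change was as small as its error (-0.07, SE 0.07). The most negative changes were those of Ndufb7 (-0.12, SE 0.14), Ndufb2 (-0.11, SE 0.12) and Ndufa1 (-0.08, SE 0.08). In Ndufb7 the negative change came with a single high array: Control 7 read 8.54, and the other 5 arrays between 8.04 and 8.12. Ndufb2 had the same stray array, with Control 7 at 9.02 and the other 5 arrays between 8.62 and 8.71. Without Control 7 the change was 0.05 in Ndufb7 and 0.0089 in Ndufb2.

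The 6 assembly factors of complex I, which help build the complex and are not part of it, had a median of 0.17. In 3 of them all hCG arrays lay above all Control arrays, where 19.3% of all genes were so placed. Ndufaf4, which acts early in building the matrix arm, read 6.63, 6.78 and 6.74 in Control and 7.08, 7.00 and 7.05 in hCG. Every hCG array was above every Control array, by more than the spread within either group. The change was 0.33, or 1.26-fold with a 95% interval of 1.10 to 1.43 (SE 0.08, limma adjusted p = 0.0806). It did not pass the threshold. Ndufaf8 and Ndufaf5 form a pair in which Ndufaf5, an arginine hydroxylase, modifies the core subunit Ndufs7. Ndufaf8 read 5.25, 5.29 and 5.48 in Control and 5.66, 5.54 and 5.57 in hCG, a change of 0.25 (SE 0.09, limma adjusted p = 0.166). Ndufaf5 read 4.98, 5.04 and 5.15 in Control and 5.28, 5.17 and 5.29 in hCG, a change of 0.20 (SE 0.09, limma adjusted p = 0.216). In both genes Control 7 was the highest Control array and lay just below the lowest hCG array. Ndufaf3, a partner of Ndufaf4, changed by 0.15, Ndufaf7 by -0.04 and Ndufaf1 by -0.10, all with overlapping arrays.

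**Figure D2:**
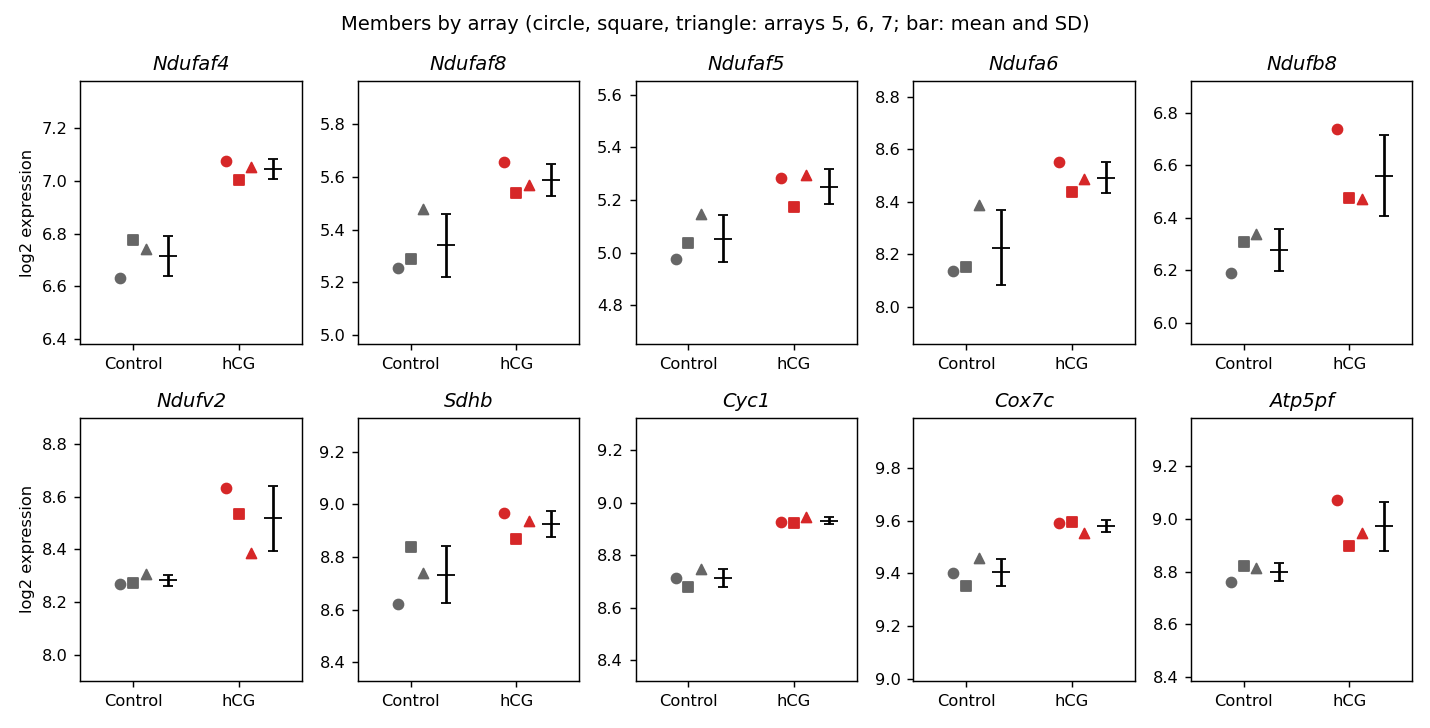
Log2 expression on each array is shown for 10 members whose hCG arrays all lie above their Control arrays, with circle, square and triangle for arrays 5, 6 and 7 and a bar for the group mean and SD. In Ndufa6, Ndufaf5, Ndufaf8, Ndufb8, Ndufv2, Cyc1 and Cox7c the triangle of Control 7 is the highest Control point, nearest to the hCG arrays. Panels have their own axes, since levels of different probe sets are not comparable.

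Complex II, succinate dehydrogenase, also works in the citric acid cycle. All 4 of its subunits had positive changes, with a median of 0.16, and in 3 of the 4 all hCG arrays were higher. Over all genes, 55.8% had a positive change and 19.3% had all hCG arrays higher. Sdhb, the iron-sulfur subunit, read 8.62, 8.84 and 8.74 in Control and 8.97, 8.87 and 8.94 in hCG, a change of 0.19 (SE 0.09, limma adjusted p = 0.239). Sdhd, a membrane anchor, read 8.26, 8.16 and 7.99 in Control and 8.44, 8.31 and 8.28 in hCG, a change of 0.21 (SE 0.10, limma adjusted p = 0.254). In Sdhd the lowest array was Control 7. A second Sdhd probe set above the filter changed by 0.11 with overlapping groups. It read 7.50, 7.42 and 7.18 in Control and 7.54, 7.46 and 7.42 in hCG. Sdhc, the other anchor, read 9.04, 9.05 and 8.96 against 9.10, 9.09 and 9.09, a change of 0.08 with little spread between hCG arrays (SE 0.07). Sdha, the flavoprotein that oxidises succinate, changed by 0.13 (SE 0.11), or 0.03 without Control 7, and its Control arrays ran from 7.70 to 8.10, on both sides of the hCG arrays. The assembly factors of complex II were divided. Sdhaf3, which helps insert iron-sulfur clusters into Sdhb, changed by 0.24 (SE 0.11), whereas Sdhaf1 (-0.12), Sdhaf2 (-0.09) and Sdhaf4 (-0.08) had negative changes. Sdhaf2, which attaches the flavin to Sdha, read 6.81, 6.79 and 6.86 in Control and 6.79, 6.72 and 6.69 in hCG.

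Complex III, which passes electrons from coenzyme Q to cytochrome c, had 4 subunits above 0 and 4 below, with a median of 0.01. Cyc1, the cytochrome c1 that hands electrons on, read 8.71, 8.68 and 8.75 in Control and 8.92, 8.92 and 8.95 in hCG. The groups did not overlap and each was tight, with SDs of 0.03 and 0.01. The change was 0.22, or 1.16-fold (SE 0.07, limma adjusted p = 0.138), and stayed between 0.20 and 0.23 when any 1 array was left out. Uqcrc2, a core protein with no redox centre, changed by the same 0.22 but with a wider error (SE 0.11), as Control 7 read 8.53 and the other Control arrays 8.87 and 8.85. Without Control 7 it was 0.11. Its companion Uqcrc1 changed by -0.04 (SE 0.11), and here Control 7 was the highest array at 9.15. Uqcrfs1, the Rieske iron-sulfur protein, had the largest error of the complex, with arrays at 9.26, 9.28 and 8.85 in Control and 9.002, 9.12 and 9.44 in hCG and a change of 0.06 (SE 0.16). The lowest changes were those of Uqcr10 (-0.13, SE 0.09) and Uqcrh (-0.12, SE 0.10), small subunits, the second of which binds at the cytochrome c1 hinge.

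Complex IV, cytochrome c oxidase, reduces oxygen to water. Its 13 tested subunits had a median of 0.07, with 8 above 0 and 5 below. The groups did not overlap in Cox6a1, Cox7b, Cox7c and Ndufa4, all higher in hCG, as in 19.3% of all genes. Cox7c, a small membrane subunit, read 9.40, 9.35 and 9.46 in Control and 9.59, 9.59 and 9.55 in hCG, a change of 0.18 (SE 0.07, limma adjusted p = 0.209). Ndufa4 read 9.69, 9.62 and 9.74 in Control and 9.93, 9.81 and 9.79 in hCG, a change of 0.16 (SE 0.08). Cox7b changed by 0.12 and Cox6a1 by 0.09, both with an SE of 0.08. Cox5a, a subunit on the matrix side, had the largest error of all members, with Control arrays at 4.71, 5.18 and 5.59 and hCG arrays at 5.20, 5.41 and 5.36. Its change was 0.16 (SE 0.21), and leaving out 1 array moved it from -0.07 (without Control 5) to 0.38 (without Control 7). Cox4i1, the widely expressed form of the subunit on which ATP acts, changed by -0.06 (SE 0.10), and Cox5b, Cox8a, Cox6b1 and Cox6c lay between -0.02 and 0.07.

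Several subunits of complex IV have an isoform used in muscle, lung or testis. Cox4i2, the lung form of Cox4, averaged 1.99, Cox8b, a heart and muscle form, 1.69, Cox6b2, the testis form, 2.48 and Cox7b2 1.18, all below the filter. The muscle forms Cox6a2 and Cox7a1 were tested just above it. Cox6a2 read 3.07, 2.63 and 2.63 in Control and 2.77, 3.05 and 3.36 in hCG, a change of 0.28 with a wide interval of -0.16 to 0.72. Leaving out 1 array moved it from 0.13 (without hCG 7) to 0.42 (without Control 5 or hCG 5). Cox7a1 changed by -0.06 (SE 0.11). Ndufa4l2, the hypoxia-inducible relative of Ndufa4, read 3.29, 3.73 and 3.29 in Control and 3.16, 3.38 and 3.08 in hCG, a change of -0.23 (SE 0.15) that was -0.08 without Control 6. The signs of Ndufa4 and Ndufa4l2 were opposite, with overlapping arrays in the second, and the difference between them was not tested. Cox7a2l, which joins complexes III and IV into a supercomplex, read 8.82, 8.86 and 8.99 in Control and 8.85, 8.61 and 8.70 in hCG, a change of -0.17 (SE 0.10). The pseudogene Cox6c-ps1, near the filter at 3.05 and 2.82 in the group means, changed by -0.23 (SE 0.11).

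Complex V, the ATP synthase, had 14 of its 15 subunits above 0, with a median of 0.07 and no change beyond 0.18. The peripheral stalk, which holds the catalytic head still, had the highest median, 0.14. Atp5pf, coupling factor 6, read 8.76, 8.82 and 8.81 in Control and 9.07, 8.90 and 8.95 in hCG, a change of 0.17 (SE 0.08, limma adjusted p = 0.253). Atp5pb, subunit b, read 10.35, 10.35 and 10.32 against 10.45, 10.49 and 10.43, a change of 0.11 (SE 0.07) with no overlap. Atp5po, the subunit that ties the stalk to the head, changed by 0.18 (SE 0.11), and Control 7 at 9.50 lay above hCG 6 and hCG 7. Its second, dim probe set, below the filter, changed by -0.28, so the 2 probe sets disagree in sign. In the catalytic F1 head the median was 0.04. Atp5f1a and Atp5f1b, which form the catalytic ring, changed by 0.04 (SE 0.08) and 0.03 (SE 0.08), and Atp5f1c, the rotating shaft, by 0.13 (SE 0.08) with all hCG arrays above all Control arrays. Atp5f1d, at the foot of the shaft, was the 1 subunit below 0, at -0.14 (SE 0.11), or -0.05 without Control 7, its highest array at 9.11. Its neighbour Atp5f1e changed by 0.16 (SE 0.15), or 0.33 without Control 7, the highest array there too, at 9.44 against 8.90 and 8.95 in the other Control arrays. The 6 membrane subunits had changes from 0.00 (Atp5mc3, of the proton-carrying ring) to 0.08 (Atp5mg). Atp5if1, which blocks the enzyme from running backwards, changed by -0.02 (SE 0.08), the same on both of its probe sets above the filter at -0.02 and -0.01.

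Other genes with several probe sets mostly had changes of one sign. Of 10 such members, Atp5po and Ndufa7 had probe sets of opposite sign, and those of Ndufa7 changed by 0.08 and -0.04. In Ndufv3, an accessory subunit of complex I, the brighter probe set changed by 0.04 and the dimmer one by 0.40, with hCG arrays at 4.25, 4.17 and 4.26 and Control arrays at 3.56, 3.93 and 3.99.

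Taken as the mean over its subunits of the log2 value relative to each gene's Control mean, complex I stood at -0.06, -0.05 and 0.11 on Control arrays 5, 6 and 7 and at 0.11, 0.06 and 0.06 on the hCG arrays. Control 7 lay among the hCG arrays there. Complex V stood at -0.06, -0.05 and 0.11 in Control and at 0.10, 0.04 and 0.06 in hCG, and Control 7 was its highest array. Complex III stood at -0.03, -0.03 and 0.06 in Control and 0.02, 0.02 and 0.06 in hCG, with overlapping groups. Complex II differed in that Control 7 was its lowest array: 0.01, 0.09 and -0.10 in Control, and 0.20, 0.12 and 0.14 in hCG, all above Control. In complex IV the hCG arrays stood at 0.06, 0.07 and 0.045, and Control 7 at 0.044 was level with the lowest of them. Over all genes tested the same measure lay between -0.02 and 0.04 on every array.

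**Figure D3:**
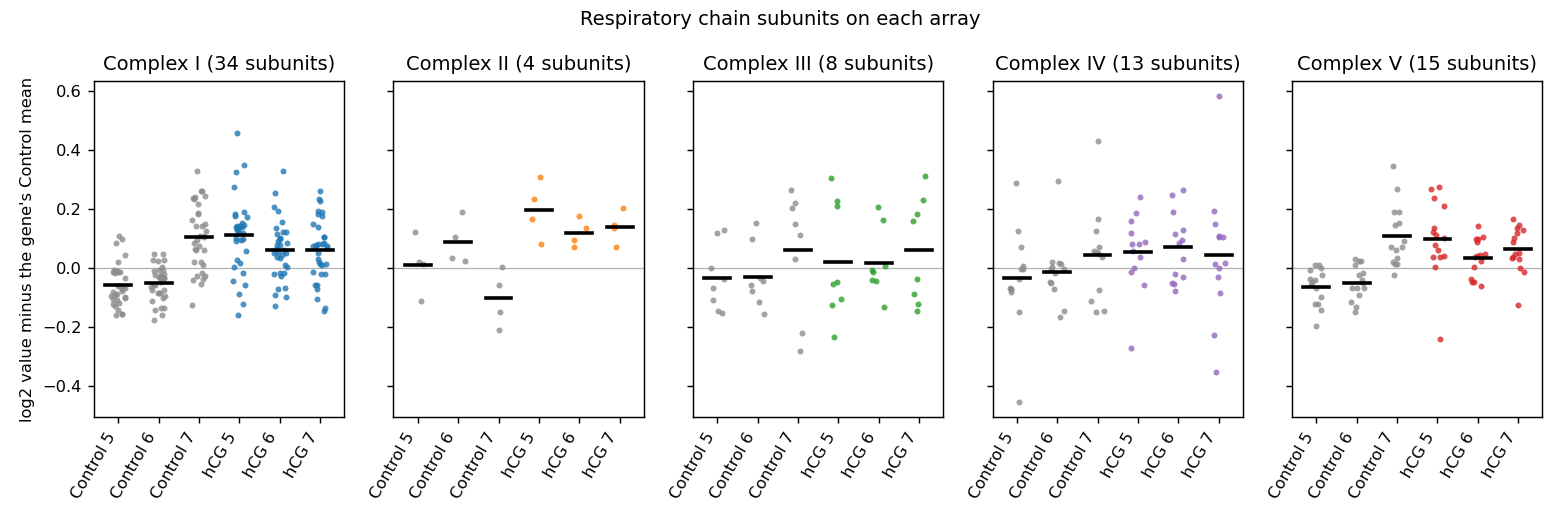
Each point is 1 tested subunit on 1 array, as its log2 value minus the gene's own Control mean, with a bar for the mean over the complex and a panel for each of complexes I to V. Control 7 stands among the hCG arrays in complex I, highest in complex V and lowest in complex II.

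Control 7 was the highest of the 6 arrays in 32 members and the lowest in 13, against 27.9% and 19.4% of all genes. It exceeded the mean of Control 5 and 6 by more than 0.2 in 27 members and fell short of it by more than 0.2 in 7, against 29.1% and 17.1% of all genes. With 1 array left out in turn, the median change of complex I ran from 0.05 (without Control 6) to 0.13 (without Control 7), that of complex II from 0.09 (without Control 7) to 0.23 (without Control 6), that of complex IV from 0.03 (without Control 5) to 0.13 (without Control 7), and that of complex V from 0.04 (without Control 5) to 0.10 (without Control 7). Complex III ran from -0.05 (without hCG 7) to 0.06 (without Control 7). With cyclic loess normalization the medians were 0.04, 0.12, -0.04, 0.02 and 0.03 for complexes I to V, so that of complex III turned sign, and the median over all genes was 0.0066. The median SD over members was 0.10 in Control and 0.05 in hCG, against 0.14 and 0.09 over all genes, and the Control SD was the larger in 64 members, as in 66.1% of all genes.

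Measures of RNA and of the arrays moved in part with these differences. The ratio of 3′ to 5′ signal of Actb, a sign of RNA length, was 2.18 on the log2 scale on Control 7 and 1.46 to 1.75 on the other 5 arrays, and that of Gapdh 0.67 against 0.05 to 0.22. In the comparison of groups the exact two-sided permutation p was 0.8 for Actb and 0.3 for Gapdh, with 0.1 the smallest possible. The 24 poly-A spike probe sets, RNA added before labelling, averaged 5.56 ± 0.14 (SD, n = 3) in Control and 4.51 ± 0.34 in hCG (exact permutation p = 0.1). Their part in the changes of the chain was not tested. Calls over all genes rested on most of the arrays together: limma called 0 genes without Control 5, Control 6, hCG 5 or hCG 7 (1950, 1931, 1649 and 1455 at an unadjusted p under 0.05), 584 without Control 7 and 338 without hCG 6, and 0 members in each case.

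Weighting the arrays by quality was the 1 setting that called members. limma gave Control 7 a weight of 0.23 and hCG 7 one of 7.25, called 15.9% of all genes higher and 9.68% lower, and called 7 members higher: Cyc1, Ndufa6, Ndufaf4, Ndufaf5, Ndufaf8, Ndufs3 and Ndufs4. The adjusted p of Ndufaf4 was then 0.0134 and ranged from there to 0.289 (without hCG 7) over the settings tried. The fit with weights rests mainly on hCG 7 in its group.

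Markers of several cell types were called in the same comparison. The cultures are labelled as grown from epithelium-enriched cells. They carried the epithelial markers Epcam (7.32 ± 0.85 in Control, 7.04 ± 0.14 in hCG), Krt8 and Krt14. Other epithelial markers were dim, such as Tp63 (2.74 in Control, 3.07 in hCG) and Elf3 (3.33 and 2.98). Fibroblast markers were bright, with means from 8.47 (Lum) to 12.5 (Dcn) in Control and from 9.61 (Lum) to 12.4 (Dcn) in hCG. Of 7 tested endothelial markers 4 were called higher, with a median of 1.23, and their mean level ran from -0.34 to 0.49 in Control and from 1.24 to 1.33 in hCG. Of 8 luminal markers Cd24 was called lower (median -0.48), and 0 of 7 tested basal markers were called (median 0.69). Lum of 6 fibroblast markers, Fabp4 of 2 tested adipocyte markers and Rgs5 of 3 tested pericyte markers were called higher. Of 3 tested macrophage markers 0 were called (median -1.09). The adipocyte, pericyte and macrophage lists each held 5 genes, and those not tested, among them Adipoq, Plin1 and Lep, were below the filter. Of 19 mitosis genes Cdk1 and Cenpf were called higher, with a median of 0.73. Of 6 skeletal muscle markers 3 were tested and 0 called, as were 2 brown fat markers of 4. The mean level of the 3 muscle markers differed between arrays. It was 0.45, -0.24 and -0.20 on Control arrays 5, 6 and 7 and -0.78, 0.67 and 1.06 on the hCG arrays. The mean level of the luminal markers was -0.72, 0.15 and 0.58 in Control and -0.35, -0.60 and -0.71 in hCG. That of the basal markers was -0.60, 0.16 and 0.44 in Control and 0.43, 0.73 and 0.77 in hCG. At an unadjusted p under 0.05, 16 of 19 mitosis genes, 7 of 7 endothelial markers and 4 of 6 fibroblast markers were higher. So were 3 basal, 2 adipocyte and 2 pericyte markers. Lower were 2 macrophage markers, 1 luminal marker and 1 brown fat marker, and 0 muscle markers moved either way. Over all genes, 14.4% were higher and 9.64% lower at that p. The brown fat marker was Ppargc1a, which also stands in the list of mitochondrial biogenesis regulators. Cidea, the other one tested, changed by -0.13. The part of these cell types in the levels of the chain was not tested.

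Other mitochondrial genes were described by lists of known pathway members. Of 13 tested genes of the citric acid cycle and pyruvate dehydrogenase, which feed the chain with NADH and succinate, 0 were called, with a median of 0.05. The isocitrate dehydrogenase subunits Idh3b (0.31, SE 0.10, limma adjusted p = 0.119) and Idh3g (0.21, SE 0.07, limma adjusted p = 0.149) had the smallest p, the 2 of the list under 0.05 without adjustment. Among 29 assembly factors outside the rule 0 were called, with a median of 0.04, 5 higher and 1 lower at an unadjusted p under 0.05. At that p 14.4% of all genes were higher and 9.64% lower. The heme A synthase Cox15 changed by 0.30 and Tmem126b, an assembly factor of the complex I membrane arm, by 0.34. The 12 genes of coenzyme Q synthesis had a median of 0.01 with 0 called and 1 higher at an unadjusted p under 0.05 (Coq3, 0.36). Hccs, which attaches heme to cytochrome c, changed by 0.19 (limma adjusted p = 0.182).

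The 67 mitochondrial ribosomal proteins, which make the subunits encoded in mitochondrial DNA, had a median of 0.12, with 56 above 0 and 11 below. The groups did not overlap in 26 higher and 3 lower, against 19.3% and 12.3% of all genes, and 16 were higher and 2 lower at an unadjusted p under 0.05, against 14.4% and 9.64%. The 1 call was Mrps6, which read 8.71, 8.59 and 8.46 in Control and 7.64, 7.74 and 7.47 in hCG and fell by 0.97 (SE 0.11, limma adjusted p = 0.0294). The inositol transporter gene Slc5a3 lies within the span of Mrps6, which makes the value of Mrps6 uncertain. The Slc5a3 probe set above the filter changed by -2.14 and the dim one below it by 0.09, and whether they share signal with Mrps6 was not tested. Mrps18c had the next smallest p (0.36, limma adjusted p = 0.0859).

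Of 14 regulators of mitochondrial biogenesis, 1 was called, with a median of 0.11. Twnk, the helicase that unwinds mitochondrial DNA, read 5.96, 5.89 and 6.00 in Control and 5.30, 5.44 and 5.20 in hCG, and fell by 0.64 (SE 0.09, limma adjusted p = 0.0368). Its second probe set changed by -0.51 and its neighbour Mrpl43, which starts head to head with it, by 0.02. Gabpb1, a subunit of the ETS factor GABP, read 5.77, 5.65 and 5.76 in Control and 6.10, 6.03 and 6.20 in hCG, a change of 0.39 (SE 0.08, limma adjusted p = 0.0661). Ppargc1a, the coactivator PGC-1α, went the other way, at 5.49, 5.40 and 4.57 in Control and 3.32, 4.34 and 3.82 in hCG (-1.33, SE 0.32, limma adjusted p = 0.0815). Every hCG array was below every Control array, and the gene did not pass. Every hCG array of Gabpb1 was above every Control array. Of the other genes for factors whose motifs were searched, 3 stand in this list, named here after their values were seen. They changed by 0.21 (Nrf1, SE 0.12), 0.17 (Gabpa, SE 0.11) and -0.29 (Esrra, SE 0.15), all with overlapping arrays.

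Of 16 genes of fatty acid oxidation, the other source of electrons, Cpt1a was called lower. This enzyme, which admits long-chain fatty acids to mitochondria, read 7.34, 7.16 and 6.96 in Control and 5.97, 6.26 and 6.09 in hCG and fell by 1.05 (SE 0.13, limma adjusted p = 0.0325), and its second probe set changed by -0.80. The thiolase Acaa2 changed by -0.44 (limma adjusted p = 0.0684), and the list's median was 0.01. At an unadjusted p under 0.05, 4 of the 16 were lower and 0 higher, against 9.64% and 14.4% of all genes. All hCG arrays lay below all Control arrays in 5 and above them in 3, against 12.3% and 19.3%. Of 14 carriers and pores 0 were called, with a median of 0.04. The ADP/ATP carrier Slc25a4, which exports the ATP that complex V makes, changed by 0.28 (limma adjusted p = 0.146) and the citrate carrier Slc25a1 by -0.26 (limma adjusted p = 0.182). Of 9 uncoupling and antioxidant genes 0 were called, with a median of 0.00, and Prdx5 changed by -0.82 (SE 0.26, limma adjusted p = 0.131).

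Glycolysis, the route to ATP that does not need the chain, had 0 of 13 genes called and a median of -0.46, with 10 below 0 and 7 lower at an unadjusted p under 0.05. Its mean level ran from -0.14 to 0.10 in Control and from -0.53 to -0.18 in hCG. Hk1, which traps glucose, changed by -0.68 (SE 0.14, limma adjusted p = 0.0573) and Gpi by -0.53 (SE 0.12, limma adjusted p = 0.0753). The 17 hypoxia targets, which respond to low oxygen, also had 0 called, with a median of -0.31 and 4 lower and 1 higher at an unadjusted p under 0.05. Their mean level was 0.19, 0.06 and -0.25 in Control and -0.71, 0.03 and -0.44 in hCG, so that hCG 6 lay among the Control arrays. Ldha stands in both lists. At an unadjusted p under 0.05, 9.64% of all genes were lower and 14.4% higher. No test compared these lists with the chain.

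**Figure D4:**
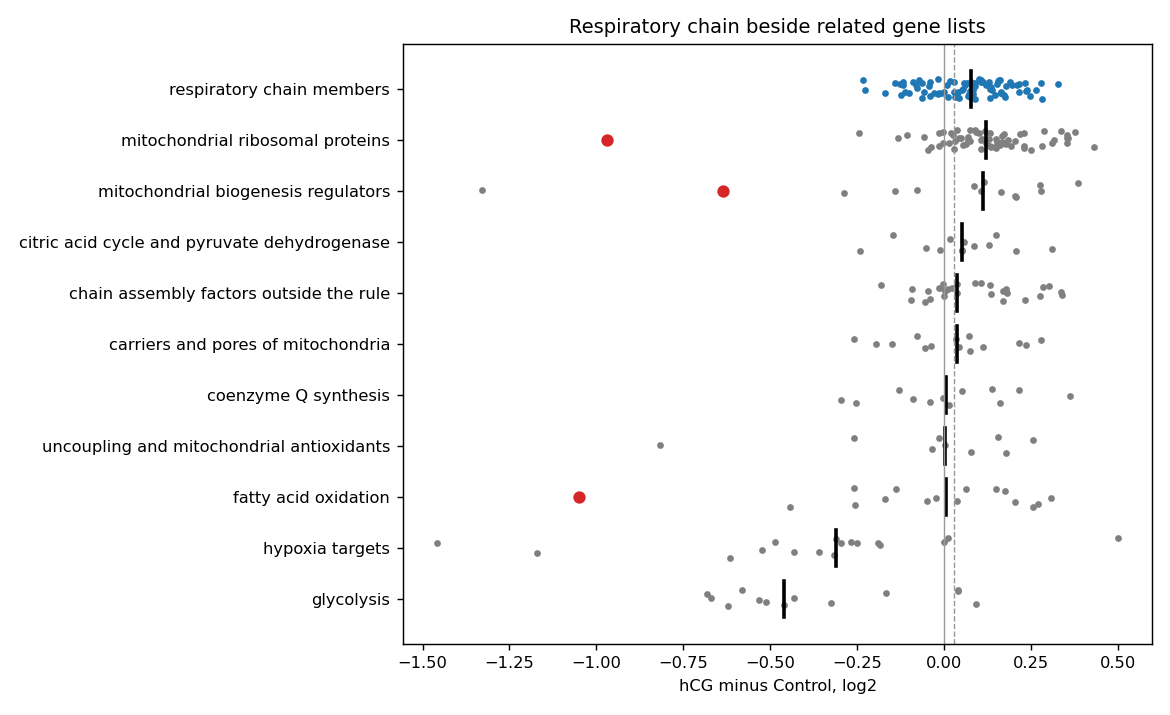
Each point is the log2 change of 1 tested gene as hCG minus Control, with a row for each list and a bar for its median, and red points for called genes. The dashed line is the median over all genes, 0.03. The respiratory chain members lie between -0.23 and 0.33 with no call, while Mrps6, Twnk and Cpt1a are called lower in 3 of the other lists.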

How the data were processed

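RNA of 3 Control and 3 hCG mammosphere cultures was measured on Affymetrix 3′ arrays. The authors deposited log2 expression values of 31099 probe sets. Per the submitters' processing notes, RMA, MAS5 and limma were used, with no versions or roles given, and the log base and normalization were read from the values (0.74 to 13.1, array medians 3.44 to 3.48). A change shared by most genes would therefore not be seen. Scanner files were not used here. The number of arrays limits the precision.

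The 57 control probe sets were left out, as were the dimmest 40% of the rest, which left 18625. Of 31042 probe sets, 20826 named 1 gene, 436 several and 9780 none. Symbols of 20758 were updated by Entrez number through a RefSeq gene table of GRCr8 and 68 were kept. Groups came from the sample titles. hCG and Control were compared in limma 3.58.1 (R 4.3.3, lmFit and eBayes), two-sided, with Benjamini-Hochberg adjustment over 10424 genes at 0.05. The script was tested on simulated data. Single values per array were compared by exact permutation. Members and lists were chosen with earlier results of these data known. Members were named where they passed, were among the largest rises or falls of a complex, were isoforms, had probe sets of opposite sign, or showed no overlap or a stray array; the last 2 kinds were picked after their values were seen. Of each other list, called genes and those of smallest p were named. Alternatives were other filters, normalizations, variance settings, array weights, probe set choices, a block and each array left out; adjustment over probe sets and the place of Ndufa4 were added after seeing the data.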

Additional observations from a re-analysis of the deposited data

How the results depend on the processing

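The count of 0 members called higher held in every setting tried except array weights (7 called), and 0 were called lower in each. Over all genes, 190 were called as reported, 118 with the array number as a block (85 of them among the 190), 2663 with array weights, 306 with a variance trend, and with 1 array left out 584 (without Control 7), 338 (without hCG 6) or 0 (the other 4). Adjustment over probe sets, added after seeing the data, called 177. The array numbers did not pair the samples: deviations of same-numbered arrays correlated at -0.09, 0.13 and 0.00, Control 5 and Control 7 correlated best with another number, and 0 members were called with the block. The median change of complex III was 0.074 with array weights, and -0.046 (without hCG 7) to 0.056 with 1 array left out. That of complex IV was 0.0225 with cyclic loess normalization, and 0.031 (without Control 5) to 0.13 (without Control 7) with 1 array left out. The cause was not tested. Cyclic loess normalization also lowered the medians of complex I to 0.04, of complex II to 0.12 and of complex V to 0.03, and gave complex III a median of -0.04; the median over all genes was then 0.0066. Array weights gave complex II a median of 0.09. These moves and those in the other settings were smaller than the SD between Control arrays. Over 17 settings, 1404 of 1474 member changes kept their sign and call, 63 changed sign without a call, in 28 genes whose reported change was at most 0.16, and 7 gained a call, all with array weights. Pseudocounts did not apply to log2 values. With 3 arrays per group and standard errors of 0.07 to 0.21, small changes of the chain are at the limit of what these arrays resolve.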
